A study of Mus musculus with 24 samples.

Results

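The PRDM factors are a family of zinc finger proteins, and this account follows 8 of them, Prdm1, Prdm6, Prdm8, Prdm12, Prdm13, Prdm14, Prdm16 and Mecom, through calibrated RNA-seq of mouse embryonic stem cells (ESCs) before and after PRC1 was inactivated. Members were found by gene symbol, and where a symbol had several rows the row with the largest sum over the 12 libraries was used. A row was found for 7 of the 8 symbols among 19409 symbols in the gene table, and Prdm16 is not analysed here. All 7 passed the filter on low values, which asked for 10 or more reads in 3 or more libraries. The genes were chosen by their normalised read counts across the 4 conditions of these same libraries, among them a smaller rise of Mecom in one line, so their own values are a description and carry no test.

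Both ESC lines are E14 cells that carry ERT2-Cre, a recombinase activated by 4-hydroxytamoxifen (OHT), at the Rosa26 locus, and each line is 1 clone. PRC1CKO (clone B9) is Ring1a-/-; Ring1b fl/fl, so untreated cells already lack RING1A, and OHT removes RING1B. PRC1CPM (clone 41) carries the substitutions I50A and D53K in Ring1a, and OHT switches Ring1b from the wild-type form to one with I53A and D56K, so the treated cells hold RING1A and RING1B without ubiquitin ligase activity, while the untreated cells already carry the mutant RING1A. Each line was left untreated (UNT) or given 800 nM OHT for 72 h, with 3 libraries per condition, and Drosophila SG4 cells were added as a spike-in for calibration. No cells without a floxed Ring1b were given OHT. Effects of OHT or of active Cre therefore cannot be told apart from those of the change in Ring1b. The study's methods call the replicates biological, but the labels do not say whether they were separate cultures, so errors and p-values measure the spread between these libraries, and with 1 clone per line genotype and clone cannot be told apart.

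Values are normalised read counts, reads over the gene body divided by a spike-in size factor for each library. Between 14668159 and 27016156 reads fell on genes in a library. Summed normalised counts also differed within a condition. Over replicates 1, 2 and 3 they were 2.50e+07, 1.76e+07 and 1.78e+07 in untreated PRC1CKO. In treated PRC1CPM they were 2.61e+07, 1.79e+07 and 2.18e+07. Changes are differences of log2(normalised read count + 1) with the standard error (SE) of a limma fit over the 16940 transcripts that passed the filter, and a transcript was called where its adjusted p was under 0.05 and its change above 1.5-fold. On this scale the median transcript was 0.12 higher after OHT in PRC1CKO, 0.10 higher after OHT in PRC1CPM, and 0.12 and 0.10 higher in PRC1CPM than in PRC1CKO in the untreated and the OHT-treated cells, and the changes below can be read against those shifts. Groups that do not overlap were not rare. Every treated library lay above every untreated one for 22.1% of all transcripts in PRC1CKO and 18.7% in PRC1CPM. Every treated library lay below every untreated one for 8.52% and 3.70%. Every PRC1CPM library lay above every PRC1CKO one for 9.23% of transcripts in untreated and 11.9% in treated cells. The shares with every PRC1CPM library below were 2.55% and 4.35%. In bulk RNA, fewer cells expressing a gene and less RNA per cell cannot be told apart.

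A PRDM protein pairs a PR domain, a relative of the SET domain of histone methyltransferases, with an array of C2H2 zinc fingers that bind DNA. Some members methylate histones themselves, and others recruit enzymes such as G9a, histone deacetylases or PRC2. The family acts at lineage decisions: Prdm1 and Prdm14 specify germ cells, Prdm14 also guards ground state pluripotency, Prdm8, Prdm12 and Prdm13 act in neurons, Prdm6 acts in smooth muscle, and Mecom acts in blood stem cells. PRC1 holds many developmental genes silent in ESCs, mostly at CpG-rich promoters, by ubiquitylating histone H2A. The comparison of PRC1CKO with PRC1CPM asks whether that repression needs the catalytic activity or only the complex.

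Because CpG-rich promoters are the usual seat of PRC1, the promoters of the members are shown first. RefSeq (GRCm38.p6) gave 7 starts for 6 of the members, Prdm16 included, and none was used for Prdm6 or Prdm14. In windows from 250 bases before to 50 after the start, the members held between 8 and 24 CpGs, with a median of 17, and all 32851 promoters of the same length had a median of 7. The 10 starts of 6 other PRDM genes held between 4 and 40, with a median of 20.5. The motif CACGTG, an E-box that reads the same on both strands, was in 0 of the 7 windows and in 7.15% of all promoters. The 3 sequences below are the 250 bases before a start, 5′ to 3′ on the gene's strand, with each CpG in capitals. They show the member with the largest log2 rise in PRC1CKO, a weakly expressed neural member, and a member that fell. None of these stretches overlaps an annotated exon of its gene.
Mecom, long (MDS1-EVI1) start, chr3:30509760-30510009, minus strand: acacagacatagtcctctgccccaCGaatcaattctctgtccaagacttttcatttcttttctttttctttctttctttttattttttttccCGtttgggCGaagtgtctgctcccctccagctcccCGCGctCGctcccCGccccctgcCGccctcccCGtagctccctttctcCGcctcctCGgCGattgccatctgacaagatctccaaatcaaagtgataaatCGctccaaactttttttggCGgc
Prdm13, chr4:21685964-21686213, minus strand: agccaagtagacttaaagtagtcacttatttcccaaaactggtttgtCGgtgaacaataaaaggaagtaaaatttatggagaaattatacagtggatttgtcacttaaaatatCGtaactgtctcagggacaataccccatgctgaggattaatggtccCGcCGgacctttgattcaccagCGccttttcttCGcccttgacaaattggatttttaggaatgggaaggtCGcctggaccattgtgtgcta
Prdm1, chr10:44458749-44458998, minus strand: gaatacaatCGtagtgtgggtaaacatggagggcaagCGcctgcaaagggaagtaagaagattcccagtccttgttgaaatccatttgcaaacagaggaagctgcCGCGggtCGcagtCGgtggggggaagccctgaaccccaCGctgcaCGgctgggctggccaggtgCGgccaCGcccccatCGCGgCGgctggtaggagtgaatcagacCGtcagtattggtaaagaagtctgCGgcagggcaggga
The stretch before the Mecom start holds 14 CpGs and that of Prdm1 holds 15. Prdm13 has 7, spread thinly. Over the 300-base windows these starts held 19, 20 and 8 CpGs, at percentiles 71.9, 73.5 and 51.4 of all promoters.

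Mecom rose furthest of the 7 genes in PRC1CKO, from a low untreated level, and rose to a lower level in PRC1CPM. The locus (chr3, minus strand, mm10) makes a short MDS1 transcript, an EVI1 transcript without the PR domain, and a long MDS1-EVI1 fusion that includes it. EVI1 sustains haematopoietic stem cells and is an oncogene in myeloid leukaemia. The row followed here is the MDS1 transcript NM_021442 (chr3:30236569-30509487, 3 exons), which spans the upstream part of the locus.

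In untreated PRC1CKO cells the upstream Mecom row stood at 17.9, 20.01 and 25.4 normalised reads, from 12 to 30 actual reads. After OHT it stood at 879, 589.6 and 645.5. Every treated library lay far above every untreated one, and the mean went from 21.1 ± 3.86 to 705 ± 153 (SD, n = 3), a change of 4.99 (SE 0.33) on the log2 scale. Untreated PRC1CPM cells began higher, at 61.4, 59.4 and 29.8, and reached 406, 269.8 and 211 after OHT. The groups again did not overlap, the means being 50.2 ± 17.7 and 296 ± 100.1 (SD, n = 3), and the change was 2.55 (SE 0.33). As ratios of means the changes were 33.4-fold and 5.90-fold. Ordered by level, the conditions ran from untreated PRC1CKO through untreated PRC1CPM and treated PRC1CPM to treated PRC1CKO, and no range touched that of its neighbour.

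Mecom differed between the lines at both treatments. The log2 difference of PRC1CPM from PRC1CKO was 1.16 (SE 0.33) in untreated and -1.28 (SE 0.33) in treated cells, and the difference between the OHT changes was -2.44 (SE 0.47). Mecom was chosen for that last difference, so its call is a description and other fits add no support. It was -2.50 by DESeq2 and -2.49 by edgeR, and passed the threshold in these and in limma. The call was lost without treated PRC1CKO replicate 1 (-2.27) or 3 (-2.49), or treated PRC1CPM replicate 2 (-2.40) or 3 (-2.22). It was also lost with TMM scaling or centring by chromosome (-2.43 each), no filter (-2.44) or a pseudocount of 0.1 (-2.47). Between the treated lines the call was lost without treated PRC1CKO replicate 1 (-1.11), 2 (-1.40) or 3 (-1.33), or treated PRC1CPM replicate 2 (-1.24) or 3 (-1.07), and with no filter (-1.28). Between the untreated lines it was lost without untreated PRC1CKO replicate 2 (1.13) or 3 (1.29), untreated PRC1CPM replicate 1 (0.98) or 2 (1.00), or any treated PRC1CKO library or treated PRC1CPM replicate 2 (1.16 each). No filter (1.16), a pseudocount of 8 (0.96) or leaving out both PRC1CPM replicate 1 libraries ended that call too. An adjusted p under 0.01 ended each of these calls.

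**Figure D1:**
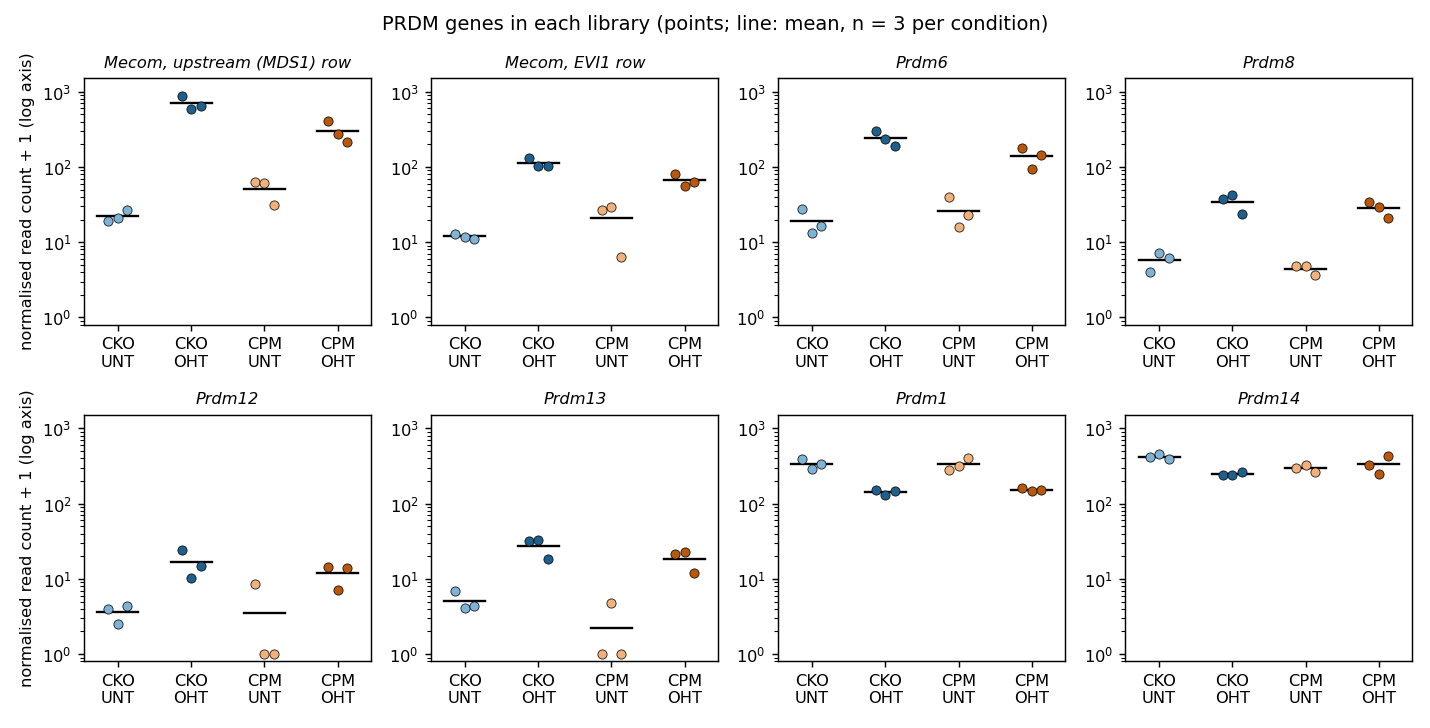
Normalised read count + 1 (log axis) of 7 PRDM genes, with both rows of Mecom, in each of the 12 libraries (points) and the mean of each condition (lines, n = 3). Mecom, Prdm6, Prdm8, Prdm12 and Prdm13 sit low in untreated (UNT) cells and have higher means after OHT in both lines, with an overlap for Prdm12 in PRC1CPM, Prdm1 sits lower after OHT in both, and Prdm14 sits lower after OHT in PRC1CKO while its PRC1CPM groups overlap.

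The second Mecom row is the EVI1 transcript NM_007963 (chr3:29951296-30013204, minus strand, 15 exons). The rows share no base, so each measures its own stretch of the locus, although the long fusion crosses both. The EVI1 row held 11.9, 10.8 and 10.1 normalised reads in untreated PRC1CKO cells and 131, 102 and 103 after OHT. In PRC1CPM it held 25.6, 28.3 and 5.42 before and 79.2, 54.1 and 62.4 after. It too was higher in every treated library than in any untreated one of its line, by 3.23 (SE 0.46) in PRC1CKO and 1.94 (SE 0.46) in PRC1CPM, but the untreated lines overlapped and the difference between the OHT changes, -1.30, was not called.

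Per kilobase, the balance of the stretches moved. In untreated PRC1CKO cells the upstream row carried 0.340, 0.421 and 0.567 of the density of the EVI1 row. After OHT the ratio was 1.52, 1.31 and 1.42, so the upstream stretch was the sparser of the pair before and the denser after. In PRC1CPM the ratios were 0.544, 0.476 and 1.25 before OHT and 1.16, 1.13 and 0.768 after, and those groups overlapped. The mean ratios were 0.443 ± 0.115 and 1.42 ± 0.104 in PRC1CKO and 0.756 ± 0.427 and 1.02 ± 0.220 in PRC1CPM (SD, n = 3). The outlying untreated PRC1CPM ratio, from replicate 3, rests on 4 reads over EVI1. The untreated PRC1CKO ratios also rest on few reads, 8, 14 and 12 over EVI1 and 12, 26 and 30 over the upstream row.

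**Figure D2:**
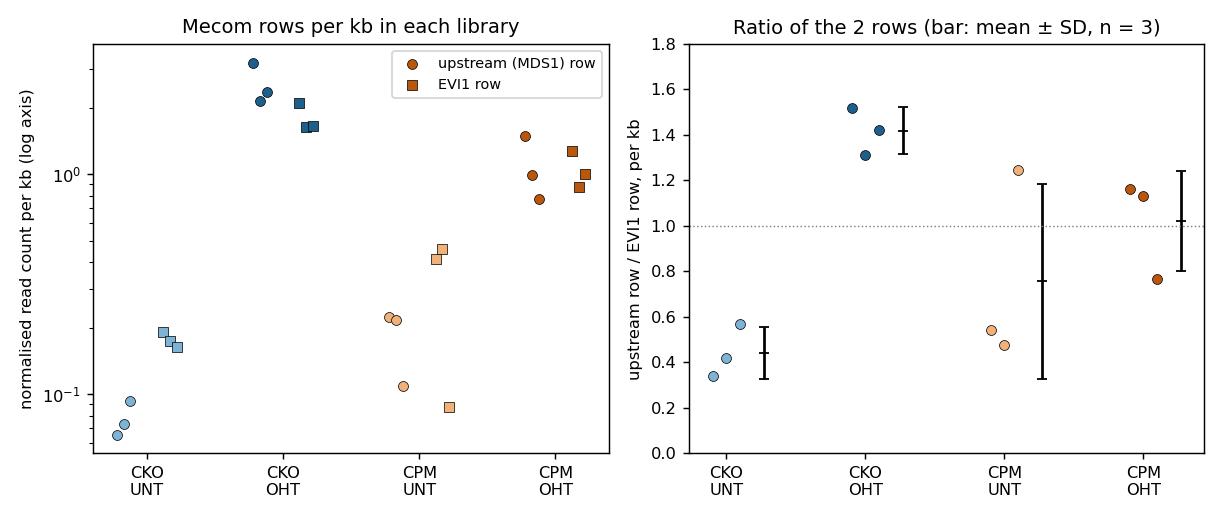
Left, normalised read count per kilobase (log axis) of the upstream (MDS1) row (circles) and the EVI1 row (squares) of Mecom in each library. Right, the ratio of the rows per kilobase, with the mean and SD (bars, n = 3). The ratio is below 1 in all untreated PRC1CKO libraries and above 1 in all treated ones, while the PRC1CPM groups overlap.

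Prdm6, a repressor of smooth muscle differentiation (chr18:53464546-53575857, plus strand), rose in both lines. Untreated PRC1CKO cells held 26.8, 12.3 and 15.2 normalised reads and treated ones 296, 233 and 188. In PRC1CPM the values were 38.4, 15.1 and 21.7 before OHT and 176, 93.6 and 143.5 after. Neither pair of groups overlapped, with changes of 3.70 and 2.46 (SE 0.39 each). The untreated lines overlapped, every treated PRC1CPM library lay below every treated PRC1CKO library, and the difference between the OHT changes was -1.23, which was not called.

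The neural members rose from a floor of a few reads. Prdm8 works with Bhlhe22 in cortical projection neurons, Prdm12 is needed for pain-sensing neurons, and Prdm13 sets the choice between inhibitory and excitatory neurons in the dorsal spinal cord. Prdm8 (chr5:98180869-98187448, plus strand) held 2.98, 6.16 and 5.07 normalised reads in untreated PRC1CKO cells and 36.2, 40.7 and 22.7 after OHT. Its PRC1CPM values were 3.84, 3.77 and 2.71 before and 32.8, 28.6 and 19.7 after. The treated and untreated libraries did not overlap in either line, and the lines overlapped at each treatment. The changes were 2.58 and 2.64 (SE 0.56 each) and their difference was 0.06 (SE 0.79).

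Prdm13 (chr4:21677480-21685963, minus strand) held 5.96, 3.08 and 3.38 normalised reads in untreated PRC1CKO cells and 30.7, 31.5 and 17.4 after OHT. In untreated PRC1CPM cells replicates 1 and 3 were at 0, which at these depths allows up to 3 reads each, and replicate 2 was at 3.77. After OHT that line reached 20.3, 21.6 and 10.95. No treated library overlapped an untreated one of its line. The changes were 2.42 in PRC1CKO and 3.41 in PRC1CPM (SE 0.66 each), but with a pseudocount of 8 they were 1.49 and 1.47 and with one of 0.1 they were 2.66 (not called) and 5.65, so the gap between the lines depends on the pseudocount. The change in PRC1CPM was 4.16 without its untreated replicate 2. The treated means were 26.6 ± 7.89 and 17.6 ± 5.82 (SD, n = 3). The difference between the untreated lines, -1.57, was not called, but without untreated PRC1CPM replicate 2 it was -2.32 and called.

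Prdm12 (chr2:31640037-31655795, plus strand) had the fewest reads of the members over the 12 libraries. It stood at 2.98, 1.54 and 3.38 normalised reads in untreated PRC1CKO cells and 23.5, 9.26 and 14.0 after OHT. In PRC1CPM it stood at 7.67, 0 and 0 before and 13.5, 6.19 and 13.1 after. The PRC1CKO groups were apart, but in PRC1CPM the untreated replicate 1 was above the treated replicate 2. The changes were 2.14 and 2.47 (SE 0.74 each). In PRC1CPM the change was 4.61 with a pseudocount of 0.1, 0.90 with one of 8 and 3.51 without untreated replicate 1. There the call was lost with the pseudocount of 8, with both count tests, DESeq2 (2.15) and edgeR (2.12), and without any 1 of PRC1CPM untreated replicates 2 and 3 (1.95 each) or treated replicates 1 and 3 (2.29 and 2.31). In PRC1CKO it was lost without any 1 of untreated replicates 2 and 3 (1.90 and 2.29) or treated replicates 1 and 3 (1.81 and 2.16). With a pseudocount of 8 the PRC1CKO change was 1.11, still called, and with one of 0.1 it was 2.49 and not called.

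The members already active in ESCs did not rise. Prdm1 (Blimp1), a repressor that starts the germ cell programme and drives plasma cell differentiation (chr10:44437174-44458748, minus strand), fell to 0.420 of its untreated mean in PRC1CKO and 0.458 in PRC1CPM. Untreated PRC1CKO cells held 387, 287 and 333 normalised reads and treated ones 149, 128 and 147. Untreated PRC1CPM cells held 281, 315 and 404 and treated ones 160.2, 147 and 151. The groups did not overlap within a line, and the lines overlapped at each treatment, with changes of -1.24 and -1.10 (SE 0.28 each).

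Prdm14, which keeps ESCs in the ground state by repressing FGF signalling and de novo DNA methyltransferases (chr1:13113428-13127163, minus strand), fell in PRC1CKO and was not called in PRC1CPM. In PRC1CKO it went from 409.6, 462 and 392 to 236, 242 and 266 normalised reads, with no overlap and a change of -0.76 (SE 0.26). In PRC1CPM the values were 293, 324 and 262 before OHT and 324, 247 and 425 after, which overlap, and the change was 0.15 (SE 0.26). The difference between the OHT changes was 0.91 and was not called. With a block on replicate number, a pairing that the labels do not state, it was called (0.91, and 0.93 with edgeR and the block). Every untreated PRC1CPM library lay below every untreated PRC1CKO library, and that log2 difference of -0.52 was not called. Transcripts of chromosome 1, where Prdm14 lies, had a median difference of -0.10 between the untreated lines against 0.12 for all transcripts. Between the treated lines these medians were -0.16 and 0.10, while Prdm14 stood at 0.39, not called. With centring by chromosome, Prdm14 differed by -0.41 between the untreated and 0.53 between the treated lines, neither called. The part of the chromosome in these differences was not tested. The call in PRC1CKO was lost when any 1 of untreated replicates 2 and 3 or treated replicates 1, 2 and 3 of that line was left out, with the change between -0.81 and -0.69.

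Per kilobase of gene body in untreated cells, Prdm14 and Prdm1 lay mid-range, at percentiles 55.4 and 44.5 of the transcripts tested. The 5 members that rose lay at the bottom, at percentiles 9.10 for Prdm8, 5.62 for Prdm13, 3.55 for Prdm6, 3.10 for Prdm12 and 2.48 for Mecom. Mecom and Prdm6 had at least 10 reads in every untreated library, but Prdm8, Prdm12 and Prdm13 had fewer in all of them and passed the filter through their treated libraries, so a rise was built into their passing.

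Counted together, 5 of the 7 members were called higher and 2 lower after OHT in PRC1CKO, where 16.5% of all transcripts tested were called higher and 3.09% lower. In PRC1CPM 5 were called higher and 1 lower, against 13.1% and 1.4% of all transcripts, and Prdm14 was called in neither direction. Leaving out 1 library moved the 524 transcripts behind 3.09% to as few as 325 (without untreated PRC1CKO replicate 1), the 2226 behind 13.1% to as few as 1435 (without treated PRC1CPM replicate 1), and the 237 behind 1.4% to as few as 121 (without treated PRC1CPM replicate 2). Transcripts called lower in PRC1CKO and PRC1CPM numbered 1133 and 595 with TMM scaling, and 1223 and 657 with centring by chromosome. With the replicate block they numbered 823 and 461. The median change of the 7 was 2.42 in PRC1CKO and 2.47 in PRC1CPM. These comparisons chose the genes, so nothing is read from the counts. Of the untreated lines, Mecom alone was called higher in PRC1CPM and no member lower, against 2.21% and 0.478% of all transcripts. The 374 transcripts behind the first share numbered 170 without untreated PRC1CKO replicate 3 and 1491 without untreated PRC1CKO replicate 1, and the 81 behind the second 46 without untreated PRC1CPM replicate 3. The 374 and 81 became 745 and 305 with TMM scaling, and 1631 and 253 with the replicate block. Of the OHT-treated lines, Mecom alone was called lower in PRC1CPM and no member higher, against 0.218% and 1.25%. The 37 transcripts behind the first share numbered 17 without treated PRC1CKO replicate 2 and 78 without untreated PRC1CKO replicate 1, and the 212 behind the second 82 without treated PRC1CPM replicate 1 and 399 without untreated PRC1CKO replicate 1. The 37 and 212 became 261 and 524 with TMM scaling, and 232 and 1131 with the replicate block.

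Without a block on replicate number, the difference between the OHT changes of the lines called few transcripts. At an adjusted p under 0.05 it was lower in PRC1CPM for 4 transcripts (0.0236%) and higher for 0 (0%), although 369 and 128 had an unadjusted p under 0.05 by limma, and for higher differences DESeq2 and edgeR called 0 as well. Lower differences numbered 15 with DESeq2, 4 with edgeR, 14 with TMM scaling, 12 with centring by chromosome and 0 with no filter. A block on replicate number, a pairing that the labels do not state, called 246 lower and 78 higher. With edgeR and the block these were 266 and 77. Leaving out 1 library at a time moved the count of 4 to between 1 (without treated PRC1CKO replicate 1, or treated PRC1CPM replicate 2 or 3) and 28 (without untreated PRC1CKO replicate 1). Besides Mecom the 4 were Ebf2 (-3.48, SE 0.54), an early B cell factor that also marks brown fat precursors, and both rows of the imprinted growth adaptor Grb10 (-1.77 and -1.75). Ebf2 and Grb10 are named here after their values were seen.

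**Figure D3:**
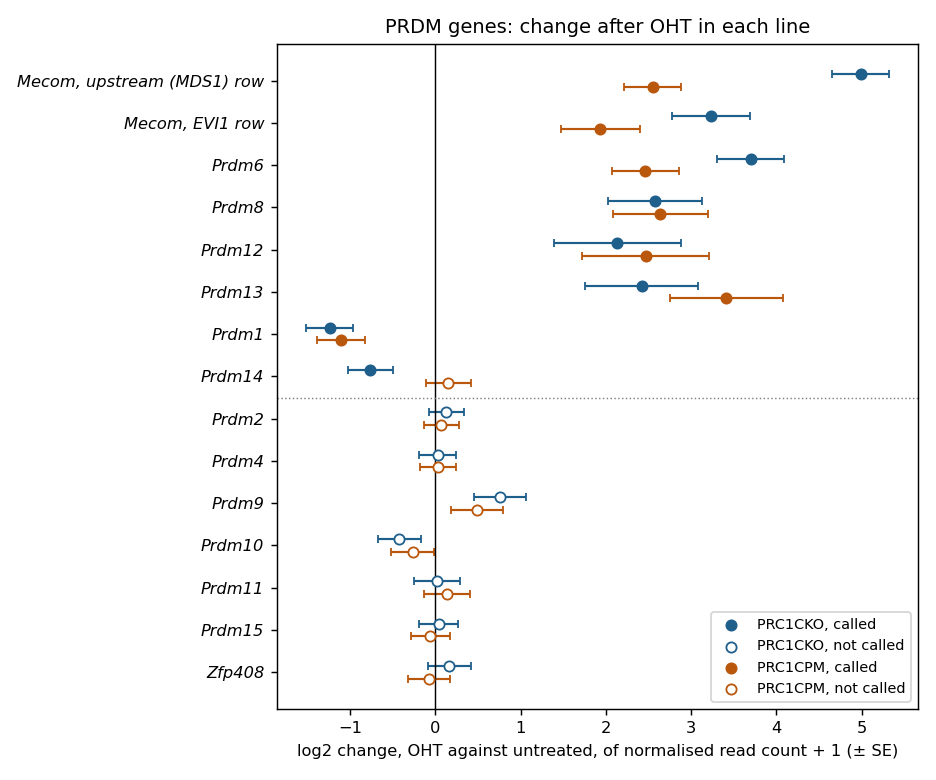
log2 change of normalised read count + 1 after OHT (points, with SE) in PRC1CKO (blue) and PRC1CPM (orange) for the members, with both Mecom rows, above the dotted line and 7 other PRDM genes below it. Filled points were called. The members spread from -1.24 to 4.99 in PRC1CKO, and none of the 7 other genes shown was called in either line. Beside this, 16.5% and 13.1% of all transcripts were called higher in PRC1CKO and PRC1CPM.

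Of 7 other PRDM genes described here, all tested, limma called 0 in either direction in each line. Beside that stand 16.5% and 13.1% of all transcripts called higher and 3.09% and 1.4% lower in PRC1CKO and PRC1CPM. Nothing is read from so low a count. Among the 7, 1 had an unadjusted p under 0.05 by limma in PRC1CKO and 0 in PRC1CPM. Their median change was 0.04 in PRC1CKO and 0.03 in PRC1CPM, beside 0.12 and 0.10 for all transcripts. By DESeq2 the calls were 1 and 0, and by edgeR 0 and 0. Prdm9, the histone methyltransferase that places meiotic recombination hotspots, stood at 191, 110.0 and 115 normalised reads in untreated PRC1CKO cells and 269, 211 and 207 after OHT. That change of 0.76 did not pass (SE 0.30, limma adjusted p = 0.072), nor did 0.49 in PRC1CPM (adjusted p = 0.38). In PRC1CKO it was called with DESeq2 (0.74) and without untreated replicate 1 (1.01). The other 6 genes, Prdm2, Prdm4, Prdm10, Prdm11, Prdm15 and Zfp408, changed by between -0.42 and 0.17 in PRC1CKO and were called in no comparison by limma. Prdm11 shares its span with a gene on the opposite strand.

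Partners and targets of the members were taken as lists from textbook knowledge, and their counts stand beside the 16.5% and 13.1% of all transcripts called higher in PRC1CKO and PRC1CPM and medians of 0.12 and 0.10. The 16 cofactor genes were enzymes and corepressors that PRDM proteins recruit, together with the transcription factors Bhlhe22, Smad3 and Cebpb. Of the 16, 1 was called higher and 0 lower in each line, with median changes of 0.09 and 0.08. Nothing is read from so low a count. The gene called was Bhlhe22, the neuronal partner of Prdm8, at 2.06 (SE 0.53, limma adjusted p = 0.0024) in PRC1CKO and 2.08 (adjusted p = 0.0030) in PRC1CPM. None of the chromatin enzymes on the list was called in either line, G9a (Ehmt2) standing at -0.16 and -0.32 and Prmt5 at 0.15 and 0.02. Smad3 stood at 0.53 (limma adjusted p = 0.12) and 0.44 (adjusted p = 0.27). The cofactor count was 2 in PRC1CKO without untreated replicate 1 and 0 in PRC1CPM without untreated replicate 3.

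The germ cell and ground state genes tied to Prdm1 and Prdm14 held calls in both directions. Of 19 tested, 6 were called higher and 2 lower in PRC1CKO, and 3 higher and 1 lower in PRC1CPM, with medians of -0.08 and 0.10. Of all transcripts, 16.5% and 13.1% were called higher and 3.09% and 1.4% lower in PRC1CKO and PRC1CPM. Nothing is read from the PRC1CPM counts or from the 2 lower calls in PRC1CKO, which are so few. The largest increases were of Ddx4, a germ cell RNA helicase, at 2.26 (SE 0.23, limma adjusted p = 2.3e-11) in PRC1CKO and 1.81 in PRC1CPM, and of Bmp8b, at 1.40 (SE 0.29) and 0.89. The decreases in PRC1CKO were of Tet2, a DNA demethylating enzyme, at -1.08 (SE 0.24, adjusted p = 0.00040), which also fell by 0.77 in PRC1CPM, and of Tfap2c. Tfap2c, a partner of Prdm1 and Prdm14 in germ cell specification, changed by -0.66 in PRC1CKO (SE 0.22, adjusted p = 0.025) and by 0.36 in PRC1CPM (adjusted p = 0.38). Genes that PRDM14 represses were split in PRC1CKO, where Dnmt3b (0.68) and Fgfr2 (1.38) were called higher while Dnmt3a (-0.16), Dnmt3l (-0.08) and Fgfr1 (-0.05) were not called. In PRC1CPM none of these 5 was called, at 0.01, 0.22, -0.18, -0.45 and 0.11 in the same order. These genes were chosen after their values were seen. The genes called in PRC1CKO numbered 5 without untreated replicate 2 or treated replicate 1 or 3, and those in PRC1CPM 2 without untreated replicate 3.

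Of the 18 neural genes tested, 17 were called higher in PRC1CKO and 12 in PRC1CPM, and 0 lower in either, with medians of 2.96 and 1.69. Lhx5, a spinal cord and forebrain homeobox gene, rose by 4.65 (SE 0.63) and 3.97, from between 0 and 6 reads in each untreated library. Cdh11, a cadherin gene that Prdm8 represses in neurons, rose by 4.28 (SE 0.41, adjusted p = 4.1e-12) and 2.76. Foxd3, the neural crest factor that ESCs also use, was the exception in PRC1CKO, at 0.14 (adjusted p = 0.87). The PRC1CPM count fell to 7 without treated replicate 1 of that line. Lhx5 and 6 other genes of the list had fewer than 10 reads in every untreated library and passed the filter through treated libraries, so a rise was built into their passing. Of the other 11, 10 were called higher in PRC1CKO and 7 in PRC1CPM.

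Of the 17 blood and brown fat genes tested, 11 were called higher in each line and 0 lower, with medians of 1.68 and 1.31. Meis1, a homeobox cofactor of blood stem cells, rose by 3.93 (SE 0.28, limma adjusted p = 6.6e-16) in PRC1CKO and 2.84 in PRC1CPM. Fli1, an ETS factor of blood and endothelium, rose by 3.57 (SE 0.44, adjusted p = 5.5e-09) and 2.26. Gfi1 and Ppargc1a, both called higher in each line, had fewer than 10 reads in every untreated library, and of the other 15 genes 9 were called in each line. Of 6 smooth muscle genes, 2 were called higher in each line and 0 lower: Myocd, the coactivator at the top of the programme, at 2.04 (SE 0.39, adjusted p = 5.1e-05) and 1.38, and Myh11, a contractile myosin, at 1.54 (SE 0.36, adjusted p = 0.00089) and 1.16. The contractile genes Acta2 (-0.58), Tagln (0.19) and Cnn1 (-0.42) were not called in PRC1CKO. In PRC1CPM the smooth muscle count fell to 1 without untreated replicate 1 and to 0 without untreated replicate 3 or treated replicate 1.

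**Figure D4:**
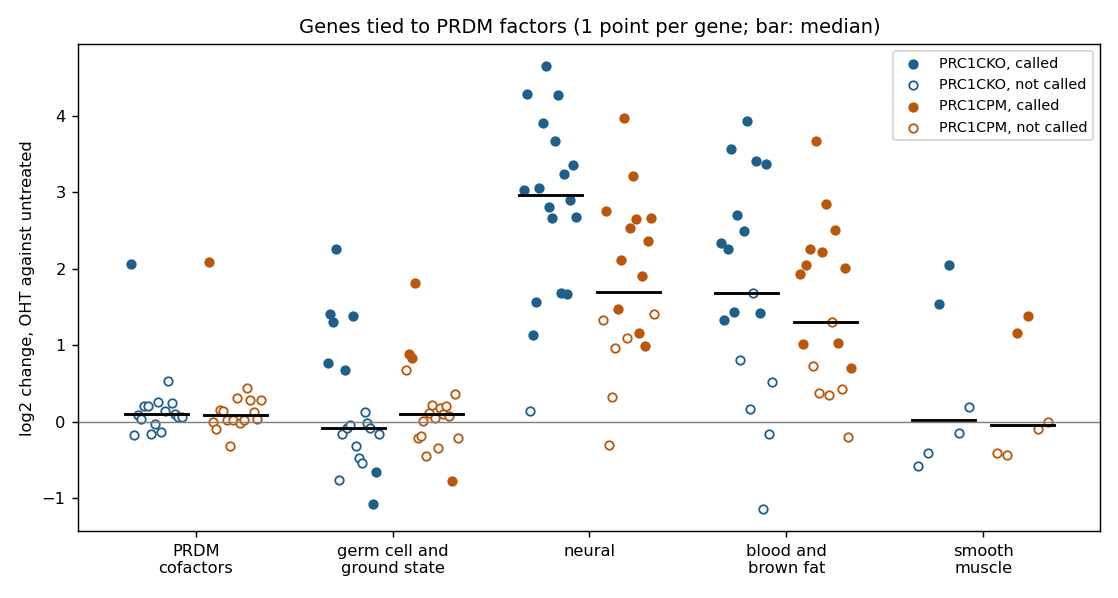
log2 change after OHT of each tested gene (points) in 5 lists tied to PRDM factors, in PRC1CKO (blue) and PRC1CPM (orange), with the median of each list (bars). Filled points were called. The neural list has medians of 2.96 and 1.69, and in the cofactor list Bhlhe22 alone was called.

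Of the 14 nearest tested genes on either side of a member, 3 were called, each higher in both lines, against 16.5% and 13.1% of all transcripts called higher in PRC1CKO and PRC1CPM, so few that nothing is read from the count. Antxr2, 150 kb from Prdm8, rose by 3.30 (SE 0.34) in PRC1CKO and 2.95 in PRC1CPM, Egfem1, 260.2 kb from the EVI1 end of Mecom, by 2.41 (SE 0.39) and 1.95, and Nkain3, 899 kb from Prdm13, by 1.06 (SE 0.29) and 0.99. The closest neighbours, Ncoa2 beside Prdm14 at 11.9 kb and Exosc2 beside Prdm12 at 14.9 kb, stood at 0.44 and -0.26 in PRC1CKO and were not called.

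Over the 12 libraries, the genes whose profile was most like that of Mecom were Sim2, Prkg1, Six3, Prrx1 and Nlgn1, by the root mean square difference of log2(normalised read count + 1) after centring each gene, which ran from 0.45 for Sim2 to 0.51 for Nlgn1. They changed by between 3.88 and 5.26 in PRC1CKO and between 2.78 and 3.40 in PRC1CPM. Those most like Prdm14 were Tfap2c (0.18), Zbtb46 (0.20) and Tiparp (0.20). In PRC1CKO these 3 changed by -0.66, -0.29 and -0.55, and in PRC1CPM by 0.36, 0.22 and -0.06. The libraries share depth and spike-in scaling, so likeness is given as a description only.

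The defining markers of ESCs were detected in every library. Of 8 such genes 7 had a row, none was at 0 in any library, and their summed level was 66321 ± 15940 normalised reads in untreated and 51634 ± 4007 in treated PRC1CKO cells, and 60877 ± 11065 and 55868 ± 16207 in PRC1CPM (SD, n = 3), with Tdgf1 the most abundant in 9 of the 12 libraries. Sox2 was called lower in PRC1CKO (-0.89, SE 0.20, limma adjusted p = 0.00051) and no marker in PRC1CPM.

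Among markers of other cell types there were more calls higher than lower, beside the 16.5% and 13.1% of all transcripts called higher and 3.09% and 1.4% lower in PRC1CKO and PRC1CPM. Of 6 primitive endoderm genes, 4 were called higher in PRC1CKO and 6 in PRC1CPM, their sum going from 797 ± 406 to 2495 ± 419 and from 542 ± 64.9 to 1401 ± 265 (SD, n = 3), led after OHT by Gata6 in PRC1CKO and Dab2 in PRC1CPM. Foxa2, called in each line, had fewer than 10 reads in every untreated library. Of 5 tested mesoderm genes, 3 were called higher in each line, and of 5 tested trophoblast genes 4 and 3. Among 5 tested neural markers 3 were called higher and 1, Tubb3, lower in PRC1CKO, and 2 higher in PRC1CPM. Of 5 primordial germ cell genes, Dazl, Ddx4 and Mael were called higher in each line, and Nanos3 (-0.53 and 0.18) and Dnd1 (-0.76 and -0.21) were not called. These counts are not separate: Nanos3, Dazl, Ddx4 and Dnd1 are also in the germ cell list above, and Hand1 is both a mesoderm and a trophoblast marker. The sum of the 5, carried by the abundant genes, went from 1597 ± 199 to 5754 ± 463 and from 1913 ± 34.5 to 4771 ± 829 (SD, n = 3). The part of all these markers in the changes of the PRDM genes was not tested.

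Of 5 tested fibroblast markers, 2 were called higher in PRC1CKO and 1 in PRC1CPM, against 16.5% and 13.1% of all transcripts, and nothing is read from so few. Among them Col1a1 stood apart in replicate 1 of PRC1CPM, at 10521 normalised reads untreated and 12136 treated, against 1120 to 4417 in the other libraries. With both libraries left out, the members' counts stayed at 5 called higher and 2 lower in PRC1CKO and 5 higher and 1 lower in PRC1CPM, and Mecom was no longer called between the untreated lines.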

How the data were processed

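Total RNA depleted of rRNA was sequenced as 80 bp pairs from 12 libraries, 3 for each of 4 conditions. The authors removed rRNA reads with Bowtie2, aligned to mm10 and dm6 with STAR and then Bowtie2, kept unique reads without duplicates, and divided read counts over gene bodies by a DESeq2 size factor from Drosophila genes corrected by genomic DNA. The kit was directional, but the strand setting of the counting is not given in the sources used here. The deposited signal is these normalised read counts. Dividing by the smallest step of each library gave whole reads for 100% of values within 0.02 of a read, and 79.6% of values above 0 and under 20 reads were even. Both mates of a pair may therefore have been counted, so that 2 reads can be 1 fragment, and counting error and the limits set by 0 reads can be wider than read numbers imply. The 12 genomic DNA samples have no table used here. The 8 deposited columns of fold changes and p-values, the authors' own comparisons, were not used.

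Here limma 3.58.1 (R 4.3.3, trend) was fitted to log2(value + 1) of 16940 transcripts, of 20633 rows, that had 10 or more reads in 3 or more libraries, using 4 condition means and Benjamini-Hochberg adjustment over all of them. The pseudocount generally understates changes of low genes, but where low replicates spread widely or include a 0 the fitted change can exceed the ratio of means, as for Prdm12 in PRC1CPM (5.54-fold against 4.28-fold). Calls needed an adjusted p under 0.05 and 1.5-fold, or an adjusted p under 0.05 for differences between OHT changes. edgeR 4.0.16 and DESeq2 1.42.0 on the recovered reads, TMM scaling, other filters and pseudocounts, centring by chromosome, a replicate block and leaving out libraries were alternatives, and the fits were tested on simulated data. Members and lists were chosen with earlier results of these data known. Named genes were the members, the other PRDM genes, the 2 nearest tested neighbours of each member, the 5 and 3 genes of most similar profile to Mecom and Prdm14, and in each list the 2 largest increases and decreases called in PRC1CKO. Other genes named in lists and markers were chosen after their values were seen. A result for a further family gene is not reported here, and it is left out of the counts of other PRDM genes. Intervals and floors cover counting error only.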

Additional observations from a re-analysis of the deposited data

Results flagged for a closer look

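Mecom changed less after OHT in PRC1CPM than in PRC1CKO, by -2.44 on the log2 scale in the limma interaction term, which marks a difference between the lines in the same contrast. Mecom was picked for this difference, so the value is a description. The untreated PRC1CPM libraries were also higher, at a mean of 50.2 against 21.1 normalised reads.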

How the results depend on the processing

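No called direction of a named gene reversed under any alternative run. Members called higher in PRC1CKO (5) numbered 3 with a pseudocount of 0.1, where Prdm12 and Prdm13 were lost, and those called lower (2) numbered 1 with a fold above 2 or an adjusted p under 0.01. Mecom between the untreated lines (1 call) gave 0 with no filter, a pseudocount of 8, an adjusted p under 0.01 or both PRC1CPM replicate 1 libraries left out, the last chosen after seeing the data. Between treated lines (1 lower) the count was 2 with TMM scaling, which adds Prdm6 (-0.92), and 0 with no filter or an adjusted p under 0.01. For lower interactions (1) it was 0 with TMM, no filter, a pseudocount of 0.1, centring by chromosome or an adjusted p under 0.01. Other PRDM genes called in PRC1CKO (0) numbered 1, Prdm9, with DESeq2, TMM, centring by chromosome or both PRC1CPM replicate 1 libraries left out. Germ cell genes called in PRC1CKO (8) numbered 5 with either stricter threshold, and in PRC1CPM (4) 2 with DESeq2 or no filter and 1 with either stricter threshold. Smooth muscle genes called in PRC1CPM (2) numbered 1 with an adjusted p under 0.01 or both replicate 1 libraries left out. The cause was not tested.

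Leaving out 1 library at a time gave 4 to 5 members higher and 1 to 2 lower in PRC1CKO, and 4 to 5 higher and 1 to 1 lower in PRC1CPM. It gave 0 to 1 higher and 0 to 1 lower between untreated lines, 0 to 0 higher and 0 to 1 lower between treated lines, and 0 to 0 higher and 0 to 1 lower interactions. Other PRDM genes ranged from 0 to 1 and 0 to 0 in PRC1CKO and PRC1CPM, cofactors from 1 to 2 and 0 to 1, germ cell genes from 5 to 8 and 2 to 5, neural genes from 14 to 17 and 7 to 13, blood and fat genes from 11 to 13 and 8 to 12, and smooth muscle genes from 2 to 3 and 0 to 2.

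Of all transcripts, those called lower after OHT numbered 524 in PRC1CKO and 237 in PRC1CPM, but 1133 and 595 with TMM scaling and 1223 and 657 with centring by chromosome. Between untreated lines, 374 higher and 81 lower became 745 and 305 with TMM scaling, and between treated lines 212 and 37 became 524 and 261. Same-numbered libraries of different conditions deviated together, with a mean r of 0.205 over 18 pairs, 17 above 0.1, the lowest 0.0988 and the highest 0.438. The 36 pairs of different number had a mean r of -0.102 and a highest of 0.0275. All 12 libraries correlated best with their own number. That is a hint of pairing from the data, not the design, and the main fit leaves it out. With the replicate block, 2 members were called lower between treated lines (adding Prdm6), 1 interaction was higher (Prdm14, 0.91), and other PRDM genes called in PRC1CKO numbered 1, as with edgeR and the block, which was added after seeing the data. The block moved transcripts called lower after OHT to 823 and 461 and interactions from 4 to 246 lower and from 0 to 78 higher (77 with edgeR and the block). It moved transcripts called higher from 374 to 1631 between untreated lines and from 212 to 1131 between treated lines, and those called lower from 81 to 253 and from 37 to 232. DESeq2 called 85 lower between treated lines. At 0 to 8 reads in untreated libraries, Prdm8, Prdm12 and Prdm13 are the members most limited by depth.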
